A study of Mus musculus with 9 samples.

Results

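Histone H3 acetylated at lysine 27 (H3K27ac) was compared between the lines 129O1 and EpiSC5, 2 lines of mouse epiblast stem cells, after both had been turned into cells of the oligodendrocyte lineage. The comparison rests on 4 of the 9 samples of the study, 1 H3K27ac chromatin immunoprecipitation library for each line in each of 2 states: oligodendrocyte progenitor cells (OPC) and oligodendrocytes (OL). The members were the peaks on chromosomes 1 to 19, which numbered 29975 in 129O1 OPC, 33058 in 129O1 OL, 26967 in EpiSC5 OPC and 30443 in EpiSC5 OL. The labels name no treatment for any of the 4 groups. For EpiSC5 and 129O1, in that order, the labels list the mouse strains 129SvEv and 129S1/SvImJ, without saying that the orders match. In both lines OPC were grown with bFGF and PDGFA but no SHH and were sorted by the surface proteins CD140a and NG2, and OL were intermediate cells collected by the surface lipid O1. Each line is 1 source of cells, so that a difference between lines cannot be told apart from a difference between the libraries made from them, and the 2 states stand in for replicates. The study's SOX6 lists from OPC of the same lines served as a second readout, and its input DNA was not analysed here.

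H3K27ac lies on the nucleosomes of active promoters and enhancers, and long unbroken stretches of it mark genes that are used heavily in a cell type. Hox genes sit in clusters in which gene order follows the position along the body where each gene is used, from the hindbrain at the first genes to the trunk and tail at the last. Cells from a given level of the neural tube usually keep a matching stretch of their Hox clusters open, and the rest is held silent by Polycomb proteins.

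The lists of 129O1 were longer than those of EpiSC5. Peaks covered 47.3 Mb in 129O1 OPC against 36.2 Mb in EpiSC5 OPC, and 50.0 Mb in 129O1 OL against 42.8 Mb in EpiSC5 OL. The median −log10 q that the authors gave to a peak was 17.6 against 12.8 in OPC and 10.8 against 9.50 in OL. Covered length was therefore scaled to the same total in every list, and all lengths per gene below are scaled kb over the gene body plus 10 kb on each side unless called unscaled. The part of list length in any remaining difference was not tested. All 6 OPC markers had a peak in each of the 4 lists, and their summed length was 76.5 kb in 129O1 OPC and 84.3 kb in EpiSC5 OPC, and 47.5 kb and 45.0 kb in the OL lists. The summed length over 7 oligodendrocyte markers was 25.7 kb in 129O1 OPC and 25.7 kb in EpiSC5 OPC, and it was 88.1 kb in 129O1 OL and 136 kb in EpiSC5 OL. Marker sums of astrocytes, neurons, microglia and fibroblasts or mural cells were each between 0.328 and 14.0 kb, and those of pluripotent cells were at most 3.91 kb. Astrocyte sums were 12.1 and 14.0 kb in 129O1 OPC and OL against 9.75 and 9.40 kb in EpiSC5. Pluripotency sums were 3.91 and 1.36 kb against 1.74 and 0 kb. Sums of microglia and of neural crest and Schwann cells were also higher in 129O1 in both states. Those of neurons and of fibroblasts or mural cells had no shared direction.

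The largest mean differences in covered length over all tested genes lay in the HoxA, HoxB and HoxD clusters, where the stretches around Hoxa5 to Hoxa10, Hoxb5 to Hoxb9 and Hoxd3 to Hoxd8 carried H3K27ac in 129O1 and little or none in EpiSC5, in OPC and in OL. In the opposite direction stood Gpr37, which encodes a receptor of myelinating cells, and Rbfox1, which encodes an RNA splicing factor. With limma on log2(scaled kb + 1), with state as a block and Benjamini-Hochberg adjustment, 10 of 12114 tested genes were wider in 129O1 (0.0825%) and 2 were wider in EpiSC5 (0.0165%). Of the 10, 9 were Hox genes, and the 10 made up 4 loci, 3 of them Hox clusters. Of the 9, Hoxa7, Hoxa9, Hoxb6, Hoxb7, Hoxb8, Hoxd3 and Hoxd8 had 0 kb in both EpiSC5 lists. These passed the filter at a mean of 1 kb through 129O1 alone. A threshold of size alone, a difference of at least 1 log2 unit in the same direction in both states, was met by 36 genes at 26 separate loci for 129O1 (0.297%) and by 4 genes for EpiSC5 (0.033%). Of those 36, 13 were Hox genes at 3 of the 26 loci, 23 were other genes, and 14 had 0 kb in both EpiSC5 lists.

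Limma estimated the spread from 1 residual degree of freedom per gene together with a spread shared over genes. That degree of freedom is the disagreement between the line differences in the 2 states, so the p-values measure no scatter between independent cell sources. Where both EpiSC5 lists had no covered base, the disagreement came from the 2 lists of 129O1 alone. An exact permutation test of 2 against 2 lists, which ignores the pairing by state, cannot go below p = 0.333. The calls depended on the processing: with no scaling, with equal numbers of peaks per list, for the gene body alone and without the state as a block limma called 0 genes in each direction. With no scaling and with equal numbers of peaks, all 10 genes called for 129O1 and both for EpiSC5 were still past 1 log2 unit in both states. For the gene body alone this held for 6 of the 10 and both, with 50 kb windows for 4 of the 10 and both, and in the higher-scoring 50% of peaks for 9 of the 10 and 0 of the 2. With 50 kb windows, which take in the shared part of the cluster, Hoxb6 fell from 2.94 to 0.22 log2 units and Hoxb7 from 2.79 to 0.23.

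Most genes differed little between the lines. The median size of the difference was 0.16 log2 units in OPC and 0.23 in OL, while the median difference between the states was 0.36 in 129O1 and 0.53 in EpiSC5. Over the tested genes the differences in the 2 states had the same sign for 54.6%, with a Pearson correlation of 0.27 across genes, which are not independent of each other. In the plot of both differences 13 of the 19 tested Hox genes and the 2 EpiSC5 genes stand away from the mass of genes. The other tested Hox genes were not past 1 log2 unit in both states.

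**Figure D1:**
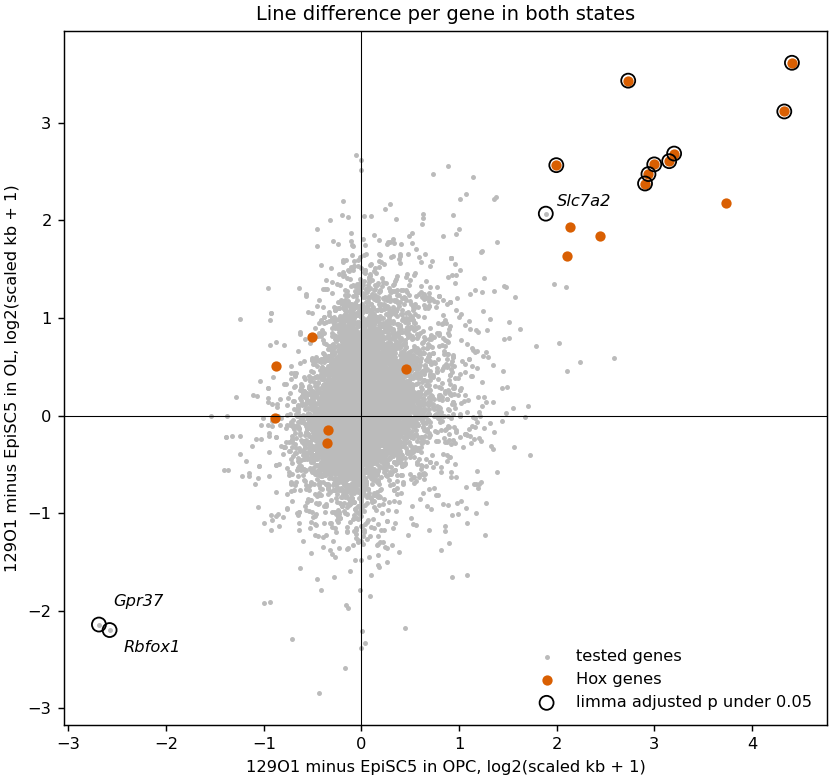
Each point is 1 tested gene; the x axis gives 129O1 minus EpiSC5 in OPC and the y axis the same in OL, both in log2(scaled kb + 1). Orange points are Hox genes and circles mark genes with a limma adjusted p under 0.05; 13 Hox genes lie past 1 on both axes, and Gpr37 and Rbfox1 lie past -2 on both.

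The sequences below are those of Hox and comparison promoters at which the lines parted, since the deposited peaks covered these starts in both lists of 1 line and in neither list of the other. Each is the 250 bases before the annotated start, from RefSeq (GRCm38.p6, the build that mm10 names), written 5′ to 3′ on the strand of the gene, with every CG in capitals. Hoxa6 lies at chr6:52208673-52208922 on the minus strand, Hoxd3 at chr2:74711743-74711992 and Hoxd8 at chr2:74704365-74704614 on the plus strand, with their starts in peaks of 129O1 alone. The Hoxd8 stretch itself lies mostly outside the 129O1 OL peak, which begins at 74704607, and the 129O1 OPC peak begins inside it at 74704403. Gpr37 lies at chr6:25689981-25690230 on the minus strand, with its start in peaks of EpiSC5 alone.
Hoxa6: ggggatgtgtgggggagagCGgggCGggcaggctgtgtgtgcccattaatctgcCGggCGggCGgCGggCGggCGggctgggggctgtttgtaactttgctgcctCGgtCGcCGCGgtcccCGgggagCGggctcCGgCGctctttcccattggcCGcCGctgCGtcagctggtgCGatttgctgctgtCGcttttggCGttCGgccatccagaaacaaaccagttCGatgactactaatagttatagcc
Hoxd3: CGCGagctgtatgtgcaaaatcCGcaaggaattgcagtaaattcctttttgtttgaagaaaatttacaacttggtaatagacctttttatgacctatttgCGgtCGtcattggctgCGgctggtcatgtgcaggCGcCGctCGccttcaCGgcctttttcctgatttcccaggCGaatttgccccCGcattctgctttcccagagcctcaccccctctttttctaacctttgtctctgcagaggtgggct
Hoxd8: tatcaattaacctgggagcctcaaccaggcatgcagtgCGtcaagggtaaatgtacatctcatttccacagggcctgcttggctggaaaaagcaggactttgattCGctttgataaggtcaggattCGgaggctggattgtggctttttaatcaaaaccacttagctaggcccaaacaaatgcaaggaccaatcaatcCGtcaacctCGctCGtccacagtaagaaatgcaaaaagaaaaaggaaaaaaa
Gpr37: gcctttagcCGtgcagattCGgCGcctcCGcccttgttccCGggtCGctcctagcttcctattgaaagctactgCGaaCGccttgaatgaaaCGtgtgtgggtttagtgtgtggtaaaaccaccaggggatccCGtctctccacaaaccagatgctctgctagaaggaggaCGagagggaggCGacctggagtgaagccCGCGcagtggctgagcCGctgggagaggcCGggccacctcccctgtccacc
The 4 stretches held 24, 12, 6 and 16 CG, and the median over 20085 promoters of the same length was 10. Of 16457 protein-coding genes with a start in the table, 202 had a start inside peaks of both 129O1 lists alone, 9 inside peaks of both EpiSC5 lists alone, 6087 in all 4 lists and 7440 in none. These counts are unscaled and the 129O1 lists were the longer ones. The part of list length in the counts was not tested. The 202 included 6 Hox genes: Hoxa3, by a start far inside the cluster, and Hoxa5, Hoxa6, Hoxa9, Hoxd3 and Hoxd8. The 129O1 OL peak over the Hoxa9 start stood at percentile 0.555 of the authors' scores, near the bottom of that list.

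In the HoxA cluster on chromosome 6 the lines shared H3K27ac over the first genes and parted from Hoxa5 on. Hoxa7, which encodes a trunk-level transcription factor like its neighbours, had 20.2 kb in 129O1 OPC and 11.3 kb in 129O1 OL, and 0 kb in both EpiSC5 lists. Its mean difference over the states was 4.01 ± 0.23 (SE) log2 units (limma with Benjamini-Hochberg adjustment, adjusted p = 0.017). The EpiSC5 lists hold no covered base in its window, so that the size of this difference depends on the 1 kb added before taking logs. Hoxa7 entered the test through 129O1 alone.

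Hoxa9 had 19.1 kb in 129O1 OPC, 7.68 kb in 129O1 OL and 0 kb in both EpiSC5 lists. Hoxa6 had 15.3 and 9.80 kb in the 129O1 lists, with 1.46 kb in EpiSC5 OPC and 0 kb in EpiSC5 OL. Hoxa5 had 12.03 and 8.25 kb, with 2.27 kb in EpiSC5 OPC and 0.56 kb in EpiSC5 OL. For these genes too both 129O1 lists were above both EpiSC5 lists, and limma with Benjamini-Hochberg adjustment called each of them, with mean differences of 3.72, 3.08 and 2.28 log2 units and adjusted p between 0.017 and 0.027. The EpiSC5 values of Hoxa9 and Hoxa6 alone would not have reached the filter's mean of 1 kb, so both passed it through 129O1. Hoxa10 had 12.3 and 3.53 kb against 0 kb and did not pass the test (limma adjusted p = 0.10). Hoxa11, next along the cluster, had 3.33 kb in 129O1 OPC alone. Hoxa13, the last gene, had 0.98 kb in EpiSC5 OL and 0 kb in the other 3 lists.

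The peaks themselves show where the lines part. In 129O1 OPC a single peak of 20872 bp ran from 52202243 to 52223114 on chromosome 6, over Hoxa5, Hoxa6, Hoxa7 and the edge of Hoxa9, and a second of 10494 bp followed over Hoxa9 and Hoxa10. In EpiSC5 OPC the last HoxA peak was 1196 bp long and ended at 52204501 within Hoxa5. In EpiSC5 OL the last HoxA peak within the cluster ended at 52192298, before Hoxa5. Neighbouring Hox genes share these peaks, because the 10 kb windows overlap, and the 4 called HoxA genes count as 1 locus.

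Hoxa2 lies before that point and did not follow the pattern, while Hoxa3 spans it and was wider in 129O1 in both states. Hoxa2 had 14.5 and 12.9 kb in the 129O1 lists against 18.9 and 15.9 kb in the EpiSC5 lists. Each 129O1 list was below the EpiSC5 list of the same state, and limma did not call the gene. Hoxa3, whose annotated body reaches across the later cluster, had 36.2 and 23.5 kb against 26.0 and 16.6 kb and was not called either.

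The HoxB cluster (chr11:96194316-96368254) divided in the same way at Hoxb4. Hoxb6 had 8.20 and 5.43 kb in 129O1 OPC and OL, Hoxb7 had 6.99 and 4.96 kb, and Hoxb8 had 6.67 and 4.56 kb, each against 0 kb in both EpiSC5 lists. Their mean differences of 2.94, 2.79 and 2.71 log2 units each passed (limma with Benjamini-Hochberg adjustment, adjusted p = 0.017). These genes entered the test through 129O1 alone, and their p-values rest on both lists of that line and the spread shared over genes. Hoxb5 had 3.41 and 2.83 kb and Hoxb9 had 3.30 and 2.11 kb against 0 kb, and neither passed (limma adjusted p = 0.08 and 0.17). The first EpiSC5 peak of the cluster began at 96318293 in OPC and at 96318222 in OL, over Hoxb4. In the 129O1 lists peaks began at 96283053 in OPC and at 96284203 in OL, over Hoxb7 and Hoxb8.

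At the start of the HoxB cluster EpiSC5 OPC carried the most H3K27ac. Hoxb3 had 21.0 and 15.0 kb in the 129O1 lists, 39.4 kb in EpiSC5 OPC and 10.2 kb in EpiSC5 OL. Hoxb4 had 7.29 and 5.32 kb, 14.3 kb and 5.45 kb in the same order, and Hoxb2 had 11.3, 8.25, 16.4 and 4.29 kb. The direction for Hoxb2 and Hoxb3 differed between the states, and limma called none of the 3. As a whole the HoxB cluster held 29.7 and 22.6 kb unscaled in 129O1 and 32.4 and 9.94 kb in EpiSC5.

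The HoxD cluster (chr2:74668225-74765142) had no H3K27ac peak in either EpiSC5 list. It held 4 peaks of 8.46 kb together in 129O1 OPC and 3 peaks of 5.78 kb in 129O1 OL, both unscaled. Hoxd3 had 7.88 and 5.10 kb, Hoxd8 6.48 and 4.20 kb and Hoxd4 4.42 and 2.58 kb, all against 0 kb. Hoxd3 and Hoxd8 passed with mean differences of 2.88 and 2.64 log2 units (limma with Benjamini-Hochberg adjustment, adjusted p = 0.017 and 0.018), and Hoxd4 did not (limma adjusted p = 0.09). These genes too entered the test through 129O1 alone, and their p-values rest on both lists of that line and the spread shared over genes. The largest peak, 4932 bp over the Hoxd3 promoter printed above, stood at percentile 81.4 of the authors' scores in 129O1 OPC, so it was among the stronger peaks of that list. The HoxC cluster on chromosome 15 had no peak in any of the 4 lists.

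SOX6, a transcription factor of OPC measured with another antibody in the same lines, had peaks in HoxD in 129O1 alone. The 129O1 OPC list held 3 SOX6 peaks of 1.10 kb together in HoxD, all inside the H3K27ac peaks at Hoxd8 and Hoxd3, and the EpiSC5 OPC list held 0. In HoxA the SOX6 peaks numbered 7 in 129O1 and 2 in EpiSC5, and in HoxB 2 and 0. The SOX6 list of 129O1 was also the longer one, with 7.92 Mb against 5.27 Mb covered, and the part of that length in these counts was not tested.

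Of all 39 Hox genes, 19 had enough covered length to be tested. Of these, 11 had 0 kb in both EpiSC5 lists and so passed the filter on low values through 129O1 alone. Of the 20 that were not tested, 15 had 0 kb in all 4 lists, among them Hoxb13 and Hoxd11 to Hoxd13 at the far ends of their clusters. In the bars for HoxA and HoxB the orange 129O1 values continue past the genes at which the blue EpiSC5 values end, and in HoxD there are orange values alone.

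**Figure D2:**
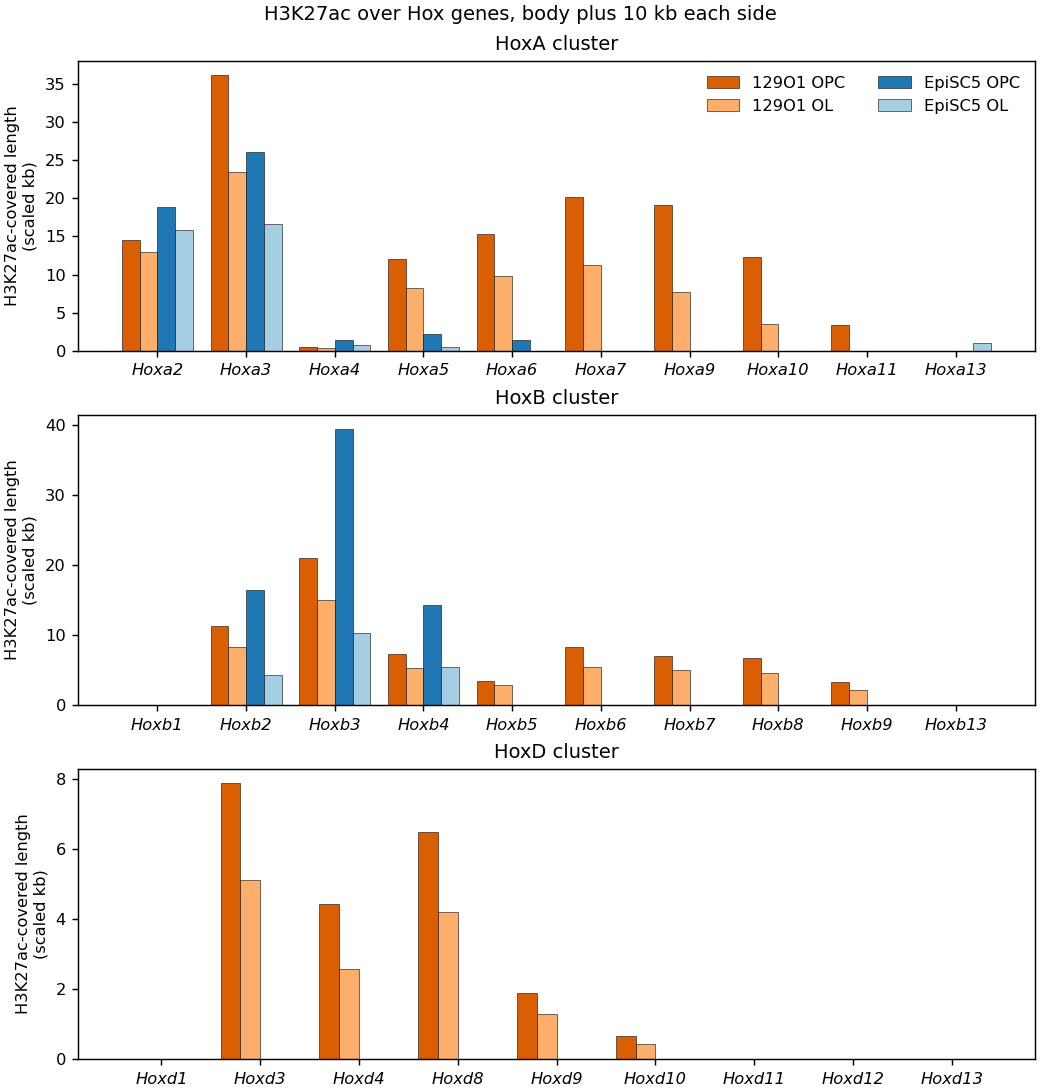
Bars give H3K27ac-covered length in scaled kb for the Hox genes shown, body plus 10 kb on each side, in the 4 lists, with genes in cluster order and each bar 1 library. From Hoxa7 to Hoxa10, from Hoxb5 to Hoxb9 and over Hoxd3, Hoxd4 and Hoxd8 both EpiSC5 values are 0.

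Hox clusters also contain microRNA genes, whose products repress Hox messages among others. The seed, bases 2 to 8 of the mature microRNA and the part that pairs with targets, is in capitals. The sequences are from RefSeq (GRCm38.p6) and are shown because members with the same seed lie in different clusters and had different H3K27ac.
mmu-miR-196b-5p: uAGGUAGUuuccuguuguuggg
mmu-miR-196a-5p: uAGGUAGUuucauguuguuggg
mmu-miR-10a-5p: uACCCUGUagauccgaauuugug
mmu-miR-10b-5p: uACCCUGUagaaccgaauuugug
The hairpin of miR-196b (chr6:52230081-52230165) lay inside a peak in both 129O1 lists and in neither EpiSC5 list, and its window held 13.1, 4.51, 0 and 0 kb in 129O1 OPC, 129O1 OL, EpiSC5 OPC and EpiSC5 OL. The peak over the hairpin stood at percentile 22.9 of the authors' scores in 129O1 OPC. In 129O1 OL it stood at percentile 1.78, near the bottom of that list. Both genes for miR-196a, in HoxB and HoxC, had 0 kb in all 4 lists. The window of miR-10a, beside Hoxb4, had 7.29, 5.32, 10.9 and 5.45 kb, and that of miR-10b, beside Hoxd4, had 0.61 kb in 129O1 OPC alone. Of 919 hairpins, 6 were inside peaks of both 129O1 lists alone, 0 of both EpiSC5 lists alone and 75 of all 4. The window of Mir9-3, the hairpin of a neural microRNA, had 17.8 and 15.9 kb in 129O1 against 7.71 and 4.13 kb in EpiSC5, and the hairpin itself lay in a peak in every list.

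Gpr37 and Rbfox1 were the genes called in favour of EpiSC5. Gpr37 had 5.45 kb in EpiSC5 OPC and 6.51 kb in EpiSC5 OL, against 0 kb in 129O1 OPC and 0.70 kb in 129O1 OL. Its mean difference was -2.41 ± 0.21 (SE) log2 units (limma with Benjamini-Hochberg adjustment, adjusted p = 0.020). Both 129O1 values were under the filter's mean of 1 kb, so Gpr37 entered the test through EpiSC5. SOX6 covered 0.95 kb of the Gpr37 window in 129O1 OPC and 0.88 kb in EpiSC5 OPC, both unscaled. The SOX6 list of 129O1 was the longer one, with 7.92 Mb against 5.27 Mb, so these lengths are not on 1 scale. In 129O1 OPC this window held SOX6 peaks but no H3K27ac peak.

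Rbfox1, one of the longest genes of the genome, had 8.92 and 19.01 kb in the EpiSC5 lists against 0.66 and 3.36 kb in the 129O1 lists. Its mean difference was -2.39 ± 0.19 log2 units (limma with Benjamini-Hochberg adjustment, adjusted p = 0.017). Both EpiSC5 lists were above both 129O1 lists for these 2 genes, and Rbfox1 was wider in OL than in OPC in each line. Of the 10 widest regions held by both EpiSC5 lists alone, 2 lay inside Rbfox1, 2768 and 2300 bp long. No annotated Rbfox1 start in the promoter table lay in a peak of any list.

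The other genes that favoured EpiSC5 did so less and did not pass. Parvb, which encodes a focal adhesion protein, had 1.83 and 9.54 kb in EpiSC5 against 0.41 and 1.79 kb in 129O1, and Slc25a13, a mitochondrial aspartate and glutamate carrier, had 1.67 and 5.34 kb against 0.33 and 1.95 kb. Dmrta1, a neural transcription factor, had 4.41 and 2.77 kb against 1.82 and 0 kb. These 3 and the next 7 by the smaller of the 2 state differences (Zfp213, Itih3, Ccdc141, Rreb1, Rap1a, Dnah5 and CK137956) had mean differences between -1.46 and -0.93 log2 units, with limma adjusted p from 0.28 to 0.40. The 9 genes whose start lay in peaks of both EpiSC5 lists alone were Gpr37, Dmrta1, Kcnj10, Luzp2, Mllt3, Mmd2, Insyn2a, Otud3 and Tmem238. The whole windows of Mmd2 and Otud3 were wider in 129O1 in both states, Mmd2 with 7.29 and 6.48 kb against 5.12 and 5.84 kb. Kcnj10 encodes an inward rectifier potassium channel of glia, and its whole window differed little, with 11.1 and 14.0 kb in EpiSC5 against 8.60 and 11.3 kb in 129O1.

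Among genes outside the Hox clusters, Slc7a2, a transporter of cationic amino acids, was the sole one called in favour of 129O1. It had 4.55 and 3.20 kb in 129O1 against 0.50 and 0 kb in EpiSC5, a mean difference of 1.98 ± 0.20 log2 units (limma with Benjamini-Hochberg adjustment, adjusted p = 0.045). Both EpiSC5 values were under the filter's mean of 1 kb, so Slc7a2 entered the test through 129O1. Another 22 genes outside the Hox clusters were past 1 log2 unit in both states without passing the test. Of these, 9 are given here by what they encode, chosen after their values were seen. Cadm2, a cell adhesion molecule, had 16.8 and 19.8 kb against 5.84 and 5.06 kb (limma adjusted p = 0.09), and SOX6 covered 5.32 kb of its window in 129O1 OPC and 2.42 kb in EpiSC5 OPC, unscaled. Slitrk5, a synaptic adhesion protein, had 2.92 and 1.55 kb against 0 kb, with 1.56 kb of SOX6 in 129O1 OPC and 0 kb in EpiSC5 OPC. Epha7, an ephrin receptor, had 4.76 and 1.52 kb against 1.09 and 0 kb, and Shisa9, an auxiliary protein of AMPA receptors, had 1.36 and 9.65 kb against 0 and 2.3 kb.

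Clu, which encodes the chaperone clusterin made by astrocytes among other cells, had 3.26 and 1.5 kb against 0 kb, and Col15a1, a collagen, had 3.07 and 1.49 kb against 0.46 and 0 kb. Ext2 and Chst9, both enzymes of sugar chain synthesis, had 2.68 and 4.56 kb against 0.56 and 1.31 kb, and 2.38 and 3.65 kb against 0.32 and 0 kb. Ccl2, a chemokine, had 3.31 and 1.37 kb against 1.00 and 0 kb. Limma adjusted p lay between 0.16 and 0.28 for Slitrk5, Epha7, Shisa9 and these 5 genes. The remaining 13 genes (Slc22a12, Gm39566, Cyp4f16, Alpk1, Gm39469, Med24, Nuggc, Atp13a4, Gng4, Mxra7, Crb2, Rfx2 and Ifi202b) had mean differences between 1.00 and 1.81 log2 units, with limma adjusted p from 0.16 to 0.31. Of the 13 astrocyte-list genes tested besides Clu, none was past 1 in both states.

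**Figure D3:**
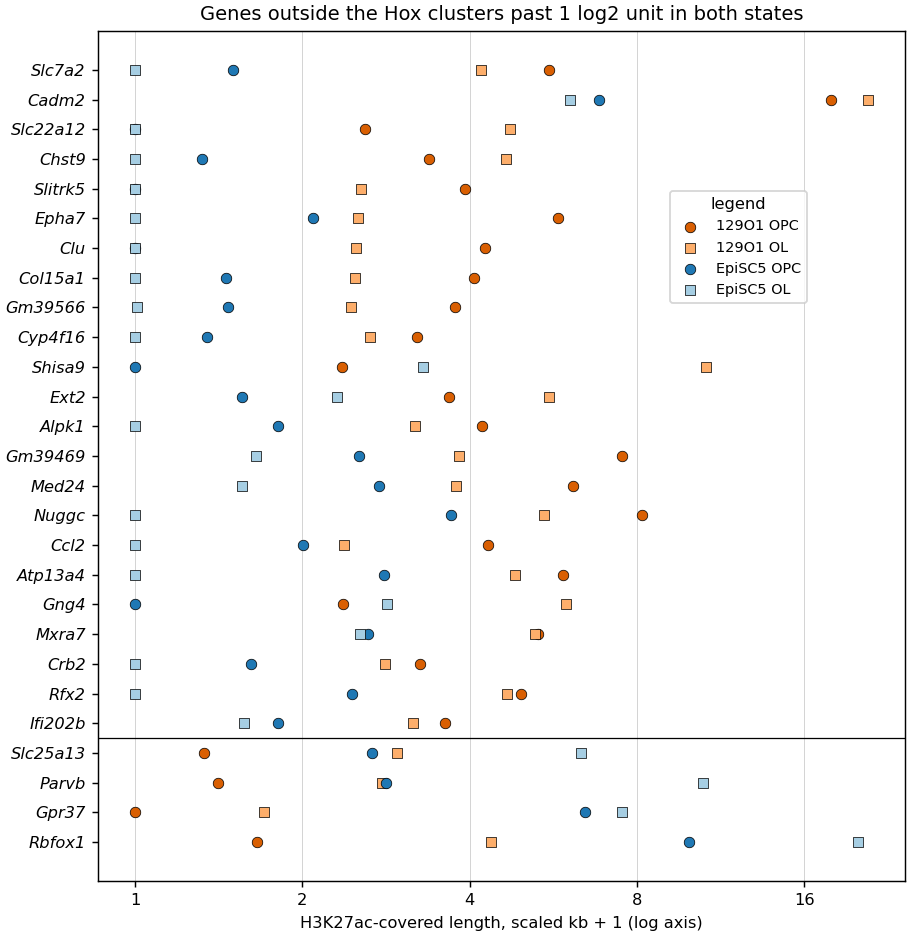
Points give scaled kb + 1 on a log axis for the 27 genes outside the Hox clusters that were past 1 log2 unit in both states, circles for OPC and squares for OL, 1 library each. Above the line the 129O1 value exceeds the EpiSC5 value of the same state; below it, for Slc25a13, Parvb, Gpr37 and Rbfox1, the order is the opposite.

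Genes that define the lineage differed little between the lines. Olig2, a transcription factor that OPC and OL need, had 12.6 and 11.8 kb in 129O1 OPC and OL and 13.7 and 11.9 kb in EpiSC5. Sox10, its partner in the lineage, had 8.09 and 8.69 kb against 9.40 and 9.54 kb, and Cspg4, which encodes NG2, had 15.7 and 10.9 kb against 14.7 and 10.1 kb. Sox6 itself had 71.6 and 69.6 kb against 69.6 and 63.1 kb. Pdgfra, the receptor CD140a that is lost on differentiation, had 14.1 kb in 129O1 OPC and 15.97 kb in EpiSC5 OPC, with 2.25 and 1.59 kb in OL. None of these was called, and of the 22 gene lists examined only the Hox list held a called gene. The median differences of the 30 tested OPC genes were -0.02 in OPC and 0.12 in OL.

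Several myelin and oligodendrocyte genes had less covered length in 129O1 OL than in EpiSC5 OL, without passing the test. Mbp, which encodes a main structural protein of myelin, had 5.74 kb in 129O1 OPC, 5.26 kb in EpiSC5 OPC, 20.9 kb in 129O1 OL and 38.7 kb in EpiSC5 OL. Mag, an adhesion protein of the inner myelin layer, had 0 kb in both OPC lists and 3.93 kb against 8.59 kb in OL. Enpp6, a marker of newly formed oligodendrocytes, had 0 and 0.50 kb in OPC and 10.6 kb against 15.9 kb in OL. Limma called none of the 3, and the 22 tested genes of the myelin list had median differences of -0.04 in OPC and -0.33 in OL, with 7 wider in EpiSC5 in both states, 2 wider in 129O1 in both states and 13 without a shared direction.

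Overlapping peaks from the 4 lists were joined, which gave 48550 regions. All 4 lists had a peak in 14591 of them, the pair of 129O1 lists alone in 1160, and the pair of EpiSC5 lists alone in 216. When each list was cut to the same number of peaks by the authors' score, the counts for 1 line alone were 629 and 365. When a line's own peaks were limited to the higher-scoring 50% of each list, 19 and 2 remained. The 19 included regions over Hoxd3, over Hoxb8 and Hoxb7, at Slitrk5, at Cadm2 and in Prdm16, and 1 of the 2 for EpiSC5 lay at Dmrta1. The line-specific regions were short and scored low: the median width was 1073 bp for 129O1 alone and 948.5 bp for EpiSC5 alone, against 2109 bp for regions in all 4, and 11.6%, 4.63% and 47.5% of them lay at a promoter. The 3 widest regions of 129O1 alone were the Hoxa9 to Hoxa10 stretch of 10494 bp, the Hoxd3 region of 4932 bp and a region of 4373 bp in Acot7.

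The SOX6 lists from OPC, which had no part in choosing the regions, gave different shares by class. Among regions of 129O1 alone, 22.9% held a SOX6 peak in 129O1 OPC and 10.4% in EpiSC5 OPC. Among regions of EpiSC5 alone the shares were 26.4% and 29.6%, and among regions in all 4 lists they were 57.8% and 43.3%. Over all 48550 regions they were 33.1% and 23.9%, so regions of 129O1 alone were below that share in both SOX6 lists. The longer SOX6 list of 129O1 had the lower share in the regions of EpiSC5 alone and the higher share in the other classes and over all regions.

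A difference of another kind covered parts of whole chromosomes. Chromosome 17 held 4.82% and 5.03% of the covered length in 129O1 OPC and OL against 4.27% and 4.28% in EpiSC5, a ratio of 1.13 in OPC and 1.17 in OL. Chromosome 15 held 4.18% and 4.29% against 4.82% and 4.91%, a ratio of 0.868 in OPC and 0.873 in OL. The other 17 chromosomes had ratios from 0.969 to 1.03 in OPC and from 0.902 to 1.07 in OL. SOX6 in OPC differed in the same direction and more, with a ratio of 1.95 on chromosome 17 and 0.753 on chromosome 15 and from 0.861 to 1.22 on the others.

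**Figure D4:**
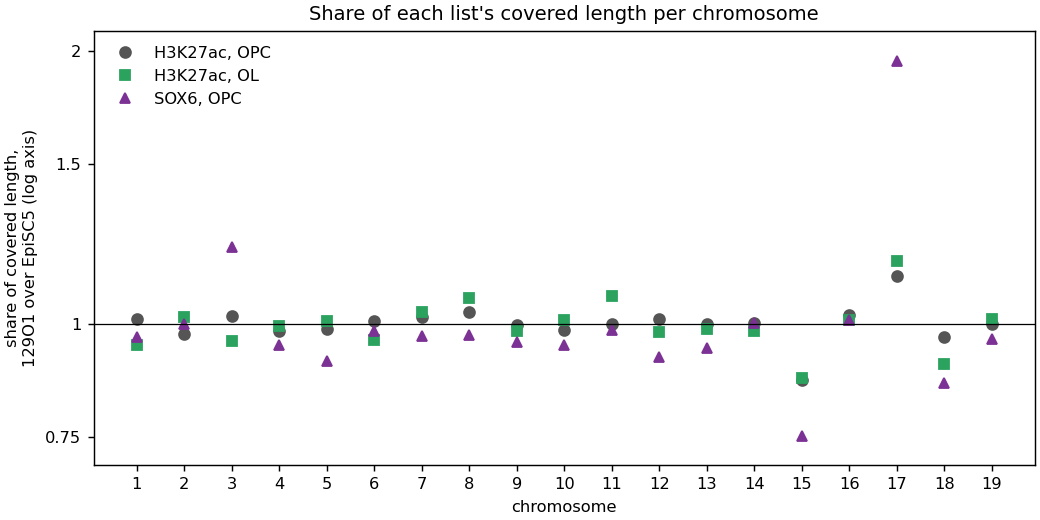
Points give, for each chromosome, the share of a 129O1 list's covered length divided by that of the EpiSC5 list, on a log axis, for H3K27ac in OPC, H3K27ac in OL and SOX6 in OPC. Chromosome 17 is above 1 and chromosome 15 below 1 in all 3, and SOX6 on chromosome 3 is at 1.22.

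The single genes of these chromosomes followed. On chromosome 17, 275 of 649 tested genes (42.4%) were wider in 129O1 in both states and 90 (13.9%) were wider in EpiSC5 in both. On chromosome 15 the counts were 82 (16.3%) and 238 (47.2%) of 504. Over all tested genes the shares were 26.1% and 28.5%, and on the other 17 chromosomes they ranged from 22.05% to 29.8% and from 23.1% to 33.2%. No called gene lay on either chromosome. Genes along a chromosome share peaks and neighbourhoods and are not independent counts.

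The shift was not spread evenly along the chromosomes. The boundaries named here were chosen after the values in 5 Mb bins had been seen and are descriptions. On chromosome 17 the first 15 Mb had ratios of 1.09 in OPC, 0.945 in OL and 1.18 for SOX6, and the rest had 1.14, 1.254 and 2.21. In that rest all 14 bins with at least 20 kb in each H3K27ac list were above 1 in OPC and for SOX6, and 12 of 14 in OL. On chromosome 15 the first 40 Mb had 0.996, 0.983 and 0.994, and the rest had 0.830, 0.837 and 0.679, with 0, 1 and 0 of 12 bins above 1.

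Shorter stretches at the ends of chromosomes 3 and 18 stood out in the same bins, again with boundaries set after the values were seen. From 140 Mb on, chromosome 3 had ratios of 1.49 in OPC, 1.29 in OL and 3.72 for SOX6, whereas the part before it had 0.981, 0.925 and 1.02. Of 52 genes tested there, 28 (53.8%) were wider in 129O1 in both states and 4 (7.69%) in EpiSC5 in both. From 80 Mb on, chromosome 18 had 0.777, 0.738 and 0.329, against 0.992, 0.926 and 0.916 before it, and 1 of 25 tested genes was wider in 129O1 in both states and 13 in EpiSC5. Mbp lies in this last stretch. The input DNA of the lines was not analysed here, and how many copies of these stretches each line carries was not tested, which bears on the ratios above and on genes inside the stretches, such as Mbp here and Parvb and Sox10 on chromosome 15.

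**Figure D5:**
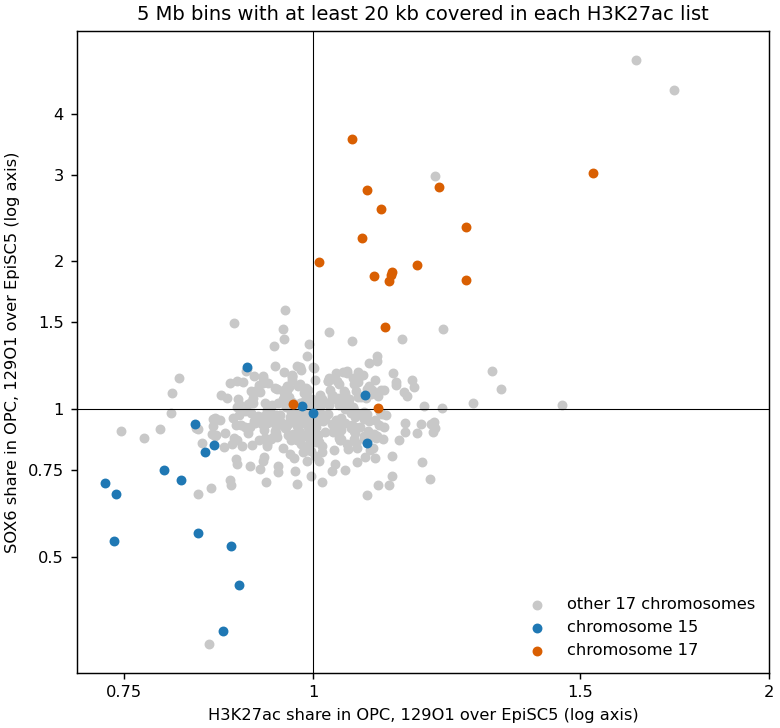
Each point is 1 of the 431 bins of 5 Mb with at least 20 kb covered in each H3K27ac list; the x axis gives the H3K27ac share in OPC and the y axis the SOX6 share in OPC, both 129O1 over EpiSC5 on log axes. Most chromosome 17 bins (orange) lie above 1 on both axes and most chromosome 15 bins (blue) below 1; the 2 highest grey points are bins of chromosome 3.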

How the data were processed

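H3K27ac peak lists of 4 libraries and, as a second readout, SOX6 lists of the same lines were used. The authors deposited, per the file layout, each peak's interval, a score, a fold enrichment (a ratio) and −log10 p and −log10 q; these values were used only to rank or describe peaks within a list. The submitters' processing notes name bedtools, deepTools, Picard, Bowtie2 (2.3.2) and Trim Galore (0.3.1), with mm10 as the build. The peak caller is not given in the sources used here. No reads per peak were given, which leaves the depth of the libraries and the counting error unknown. The labels name 2 sequencers without tying them to libraries, so that this batch was not examined.

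Covered length per protein-coding gene (RefSeq, GRCm38.p6; body plus 10 kb) was scaled to equal totals, filtered at a mean of 1 kb and tested as log2(kb + 1) with limma 3.58.1 (R 4.3.3; trend, state as a block, Benjamini-Hochberg adjustment at 0.05) on 12114 of 20665 genes. The block is the labelled state, shared by 1 library of each line. The fit was tested on simulated data. The fit's behaviour for genes without a covered base in both lists of a line, or for neighbours that share peaks, was not tested. Regions were merged and counted as present by an overlap of 1 bp. Named genes were up to 12 called per direction, the 12 per direction with the largest smaller-state difference, gene-list members past 1 in both states, a set of lineage genes and the widest regions; genes past 1 in both states were added after their values were seen. The members and lists were chosen with earlier results of these data known. Alternatives are given at the end. The input libraries and X and Y were not used here, and 1 gene is not reported here.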

Additional observations from a re-analysis of the deposited data

Results flagged for a closer look

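For 3 genes the lines differed by more than 1 log2 unit of covered length in opposite directions in the 2 states. Cenpj, which encodes a centriole protein, was wider in 129O1 by 1.08 in OPC, and the difference in OL was -1.10. Tg, which encodes thyroglobulin, had 1.08 in OPC and -1.63 in OL. Neb, which encodes the muscle protein nebulin, had 1.26 in OPC and -1.22 in OL. Each value compares 1 library with 1 library, and the difference between states was not tested.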

How the results depend on the processing

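The counts of limma calls, 10 wider in 129O1 and 2 in EpiSC5, were 0 and 0 under no scaling, scaling to shared regions, equal numbers of peaks, the higher-scoring 50% of peaks, the gene body alone and no filter; 1 and 0 with 0.25 kb added; 33 and 6 with a filter at 3 kb; 13 and 2 with 50 kb windows, with 3 of the 10 and both of the 2 still called; and 11 and 2 without trend, with all 12 still called. With the 3 kb filter 6 of the 10 and both of the 2 were still called. Without the replicate block, which is the state, they were 0 and 0 (lowest adjusted p 0.482, 102 genes at an unadjusted p under 0.05, against 964 with the block). The cause was not tested. Genes past 1 log2 unit in both states, 36 and 4, numbered 90 and 2 without scaling, 45 and 2 scaled to shared regions, 28 and 7 at equal peak numbers, 70 and 11 in the higher-scoring 50%, 23 and 7 for the body alone, 92 and 21 with 0.25 kb added and 10 and 3 with the 3 kb filter. In 1 state alone they ranged from 138 to 479 for 129O1 and from 32 to 138 for EpiSC5. All 10 genes called for 129O1 stayed past 1 in both states under no scaling, shared-region scaling, equal peak numbers and 0.25 kb; 9 did so in the higher-scoring 50%, 4 with 50 kb windows and 6 for the body alone. Both EpiSC5 calls stayed past 1 in both states under these settings except in the higher-scoring 50%, where neither did. There the mean differences over the states were -1.39 for Gpr37 and -1.52 for Rbfox1, but each gene fell short of 1 in at least 1 state.

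Regions of 129O1 alone, 1160, numbered 629 at equal peak numbers and 19 in the higher-scoring 50%, and from 6066 to 8296 in 1 state alone. Those of EpiSC5 alone, 216, numbered 365 and 2, and from 2632 to 5384. The chromosome ratios were recomputed by alternatives chosen after seeing the data. That of chromosome 17 was 1.07 in OPC and 1.10 in OL by peak number, and 1.26 in OL in the higher-scoring 50%. That of chromosome 15 was 0.865 in OPC at equal peak numbers, 0.844 and 0.836 in OPC and OL in the higher-scoring 50%, and 0.890 and 0.901 by peak number. Uncalled lineage genes changed sign: Pdgfra to -0.12 and Olig1 to 0.32 in the higher-scoring 50%, and Olig1 to 0.24, Olig2 to 0.22 and Sox10 to 0.11 without scaling. Unknown depth limits any statement on a list at 0 kb: no peak is not the absence of H3K27ac.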

Other observations

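Beyond protein-coding genes, 6025 noncoding genes had a mean of at least 1 kb in their window, and 26 were past 1 log2 unit in favour of 129O1 in both states and 7 in favour of EpiSC5. The 26 included Hoxaas3, Hoxd3os1, Hoxb5os, Mira and Gm52902, which lie in the Hox clusters and share the peaks of the Hox genes beside them. The 7 included the tRNA genes n-TKctt14, n-TRcct2, n-TRccg2, n-TPtgg6 and n-TPcgg1. These lie close together on chromosome 17 in overlapping windows, so they are not separate loci.

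In bins of 100 kb, the runs of adjacent bins past 1 log2 unit in both states were at most 2 bins long. For 129O1 they lay at Htr1a, which encodes a serotonin receptor, with 3.51 and 3.33 kb in OPC and OL against 0 kb in both EpiSC5 lists, and at Epha4, an ephrin receptor, with 6.54 and 3.06 kb against 0.59 and 0 kb. For EpiSC5 they lay at Enox1, with 2.36 and 8.48 kb against 0 and 1.87 kb in 129O1, and at Adcy8, which encodes an adenylyl cyclase, with 2.33 and 4.77 kb against 0 and 1.18 kb. Runs of any length numbered 75 for 129O1 and 35 for EpiSC5. These are values from 1 library each, with no test.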
